A study of Homo sapiens with 2 samples.

Results

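The binding sites of hnRNPM in the long noncoding RNA gene PVT1 and in its upstream neighbour MYC were taken from a deposited list of crosslink sites in HMLE cells. A site belonged to a gene when it was on the plus strand of chromosome 8 and its middle base lay within the bounds of the gene in GRCh37, 128806779 to 129113499 for PVT1 and 128748315 to 128753680 for MYC. Of the 54373 sites in the list, 120 were in PVT1 and 0 were in MYC. The genes were chosen by their position and with the site numbers and heights of this list in view, so these values are given as a description and without a test.

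HMLE cells are human mammary epithelial cells that were immortalised and grow as an established line. The material was wild-type HMLE cells given DMSO, in 2 libraries labelled as biological replicates, without another group. The assay, iCLIP, fixes proteins to the RNA under them with ultraviolet light, pulls down 1 protein (here hnRNPM) by an antibody and reads where the reverse transcriptase halted, which is often at the crosslink. The question of the series was where hnRNPM binds RNA in HMLE cells. The series has 1 list with 1 value per site and names no library in it. Whether the list pools both libraries is not stated, and neither the spread between replicates nor the depth is known. The deposited score of a site, called its height here, was read as a number of truncation events, a reading that the file does not state. The list also assigns each site to a tag cluster, a numbered group of neighbouring reads on 1 strand as the term is usually meant.

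hnRNPM is a nuclear RNA-binding protein that takes part in the choice of splice sites, and much of the RNA it meets is unspliced precursor RNA. MYC encodes a transcription factor that drives growth and proliferation, from a short gene with few introns. PVT1 is transcribed in the same direction downstream of MYC, gives many spliced forms of a noncoding RNA, hosts several microRNAs and is often gained together with MYC in tumours.

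The genes differ in length and in make-up. PVT1 spans 307 kb and MYC 5.37 kb by the bounds used, a ratio of 57.2, with 53.1 kb between them. In GENCODE 29, an annotation on another build (GRCh38) that was used for structure and gene order and not for positions, PVT1 has 25 transcripts and exons cover 1.79% of its length, while MYC has 9 transcripts and exons cover 50.01% of its length. The same annotation places 10 other genes within PVT1, among them the microRNA genes MIR1204, MIR1205, MIR1206 and MIR1207, no protein-coding gene, and 3 genes on the minus strand. It lists no gene between MYC and PVT1. The next protein-coding genes on either side of the pair are POU5F1B before MYC and GSDMC after PVT1. Which PVT1 sites fall in exons, introns or hosted genes was not analysed, because the sites and the annotation are on different builds.

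Sites ran along nearly the whole of PVT1, and nothing else nearby on its strand carried any. PVT1 had 39.1 sites per 100 kb. The first site lay 826 nt inside the start of the gene and the last 11925 nt before its end, so that the sites spanned 294 kb. MYC had no site on either strand, and neither did the 53.1 kb between the genes. The nearest plus-strand site before PVT1 was on the far side of MYC, 2.40 Mb before the start of MYC, from 126349272 to 126349292 with a height of 7. The nearest plus-strand site after PVT1 was 3.82 Mb beyond its last site, from 132918601 to 132918621 with a height of 17. All plus-strand sites in the 6.57 Mb between these were in PVT1. Moving the bounds of PVT1 by 1 kb thus gained no site and lost at most 1.

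On the minus strand PVT1 had no site either. The nearest minus-strand sites were 1.24 Mb before the first and 1.67 Mb after the last PVT1 site, with heights of 20 and 9. Every listed site within the bounds of the gene was therefore on its sense strand.

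**Figure D1:**
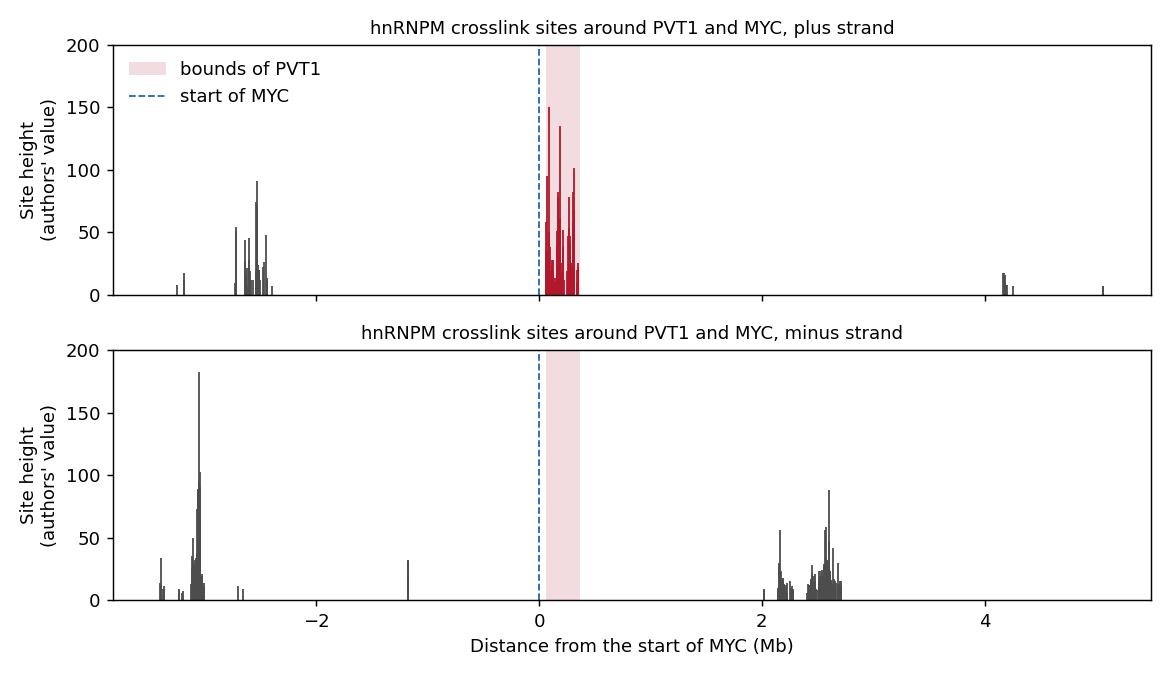
Height of each listed site in a span of chromosome 8 around the genes (y axis, the authors' value) against distance from the start of MYC in Mb, for the plus strand above and the minus strand below. The 120 red plus-strand sites in the shaded bounds of PVT1 are the only ones in an interval of 6.57 Mb on that strand, and no site lies at the dashed start of MYC.

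The absence of listed sites from MYC was set beside its length. Within PVT1 itself, 17 of 57 consecutive pieces of the length of MYC (29.8%) were empty. The fullest piece held 10 sites, 8 pieces held 5 or more and the median was 1. A window of this length slid along PVT1 held 2.11 sites on average and was empty at 27.4% of its positions. Of all windows of that length, on either strand up to the last site of each chromosome, 2.41% held at least 1 site. These windows were not limited to genes or to transcribed strands. The share therefore does not say how often a gene of this length was empty. Whether the length of MYC accounts for its lack of sites was not tested. The list holds only sites that passed the authors' threshold, the files give no RNA level for either gene, and whether binding below the threshold occurred in MYC cannot be read from them.

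The names of the sites give a further description of the region. Each name holds a running number and the number of a tag cluster, and both rose with position on all 46 chromosome strands. The file does not define these numbers. They are given here as a numbering with gaps, and what the absent numbers stand for is not known. The sites of PVT1 ran over 718 running numbers, or 244 per 100 kb, of which 16.7% were listed, against 24.2% in the whole list. In the empty 2.46 Mb that hold MYC, 29 running numbers were passed over, or 1.18 per 100 kb. In the empty 3.82 Mb after PVT1 there were 9, or 0.236 per 100 kb. Tag cluster numbers differed less. There were 284 per 100 kb over PVT1, 120 per 100 kb over the span that holds MYC and 28.1 per 100 kb after PVT1. How many of these numbers belong to MYC itself cannot be told from the list.

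The sites of PVT1 were tall. Heights in PVT1 ran from 8 to 150 with a median of 21.5 (quartiles 14 and 35.5), against a median of 11 (quartiles 8 and 17, range 4 to 1969) in the other 54253 sites. The other 1158 plus-strand sites of chromosome 8 also had a median of 11. The median of PVT1 was above 83.5% of the heights in the list. PVT1 held 0.221% of the sites of the list and 0.411% of its summed height of 854261. On the plus strand of chromosome 8 it held 9.39% of the sites and 16.8% of the summed height.

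The same shift appeared at each height threshold. In PVT1, 74 of 120 sites (61.7%, exact binomial 95% interval 52.4 to 70.4) were above the upper quartile of the list, a height of 17, where the whole list had 24.3%. At a height of 75 or more there were 8 PVT1 sites (6.67%, interval 2.92 to 12.7), against 0.842% of the list. At or above the median height of the list there were 107 PVT1 sites (89.2%), against 56.1% of the list. Low sites were few: 7 PVT1 sites (5.83%, interval 2.38 to 11.6) had a height under 10, against 35.5% of the list. How low a listed site can be differs between tag clusters, as set out below, so this share is not on equal terms with that of the list. The intervals cover counting error only. Sites of 1 gene share the level of 1 RNA and are not independent, so these shares describe the list and do not compare conditions.

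Expected heights were higher as well, and ratios of height to expectation were not. The expected height, marked PH0 in the name of the site, has 1 value per tag cluster and was read as the height expected from the level of that cluster. Its median was 1.04 over the PVT1 sites (quartiles 0.68 and 1.68) and 0.51 over the other sites (quartiles 0.34 and 0.81). Height divided by expected height had a median of 21.6 in PVT1 (quartiles 16.3 and 32.3) and 23.7 in the other sites (quartiles 18.3 and 30.6). The quartiles of the ratio were thus farther apart in PVT1 than in the rest of the list, around a lower median. The lowest ratio that can be listed depends on the expected height. Of 2 PVT1 sites near the largest deposited P value, 1 had a ratio of 6.58 at an expected height of 2.28. The other had 13.6 at 0.66. Ratios of sets with unlike expected heights are therefore not on equal terms. The lowest height that can be listed depends on the expected height too, as these 2 sites had heights of 15 and 9. Medians and shares of height, above all of low sites, are thus not on equal terms either. How much of the difference in height comes from this limit was not tested. Heights followed expected heights across the 120 sites with a Spearman's rho of 0.650, against 0.793 across the other sites; sites of 1 cluster share the expected value. The files hold no RNA level, so heights were not corrected for RNA abundance.

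**Figure D2:**
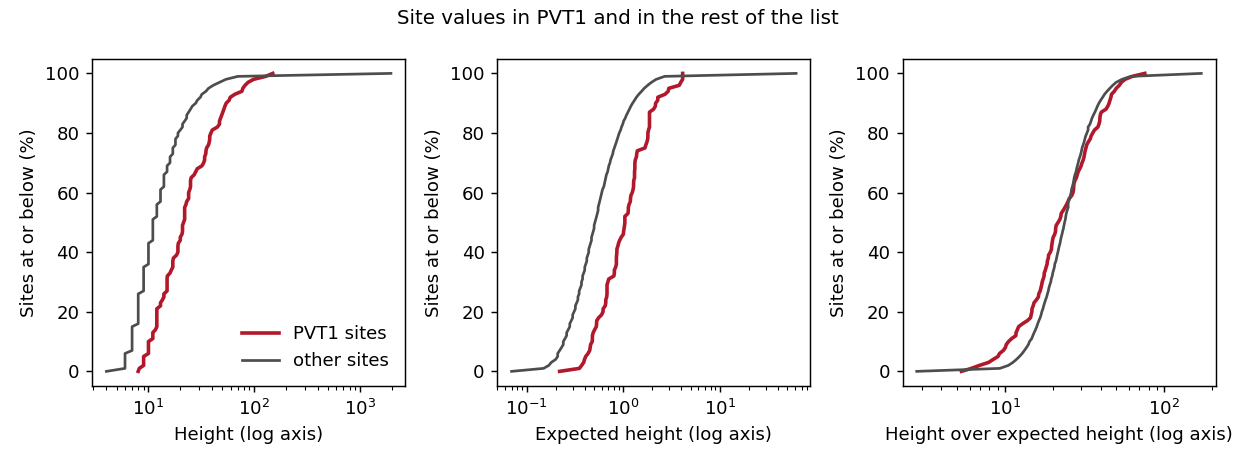
Percentage of sites at or below each value (y axes) for height, expected height and their ratio (x axes, log scales), for the 120 PVT1 sites in red and the other 54253 sites in grey. The red curves lie to the right for height and expected height, with medians of 21.5 and 1.04 against 11 and 0.51, and cross the grey curve for the ratio, with medians of 21.6 and 23.7.

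The P values deposited by the authors were at their smallest value, 1e-100, for 38 of the 120 PVT1 sites (31.7%), against 16.2% of the whole list. They did not order the tall sites. In 1 tag cluster, sites of heights 32, 37, 49 and 101 all had the deposited P value 5.36e-13. The site of height 95 had 1.66e-13, and 6 of the 10 tallest sites had 1e-100. Whether such repeated values are limits of the calculation is not stated. Differences among these small values, and the share at 1e-100, were therefore not read as strength, and sites were ranked by height.

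The tallest sites were spread over the gene. The tallest, with a height of 150, lay 27.7 kb from the start of PVT1, from 128834448 to 128834468, and was 39.5 times its expected height. A site of height 39 in the same tag cluster lay downstream of it. The next, with a height of 135, was 126 kb from the start, from 128932868 to 128932888, at 46.2 times its expected height, and the third, with a height of 101, was 257 kb from the start, from 129064225 to 129064245, at 54.01 times its expected height. These were the 3 PVT1 sites above 100, and they lay 98.4 kb and 131 kb apart along the gene.

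The remaining 7 of the 10 tallest followed a similar spread. The next in rank, of height 95, stood alone in its tag cluster 12.4 kb from the start. A pair of heights 78 and 82 shared a tag cluster at 108 and 110 kb. Another site of height 78, alone in its cluster at 206 kb, had the highest ratio to expected height in the gene, 75.7. Sites of heights 82 and 68 lay at 245 and 253 kb, and 1 of height 61, alone in its cluster, lay at 131 kb. Together the 10 tallest made up 26.5% of the summed height of PVT1, which was 3510. The first site of the gene, from 128807595 to 128807615, was also among the taller ones with a height of 58. The last, from 129101564 to 129101584, had a height of 19.

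**Figure D3:**
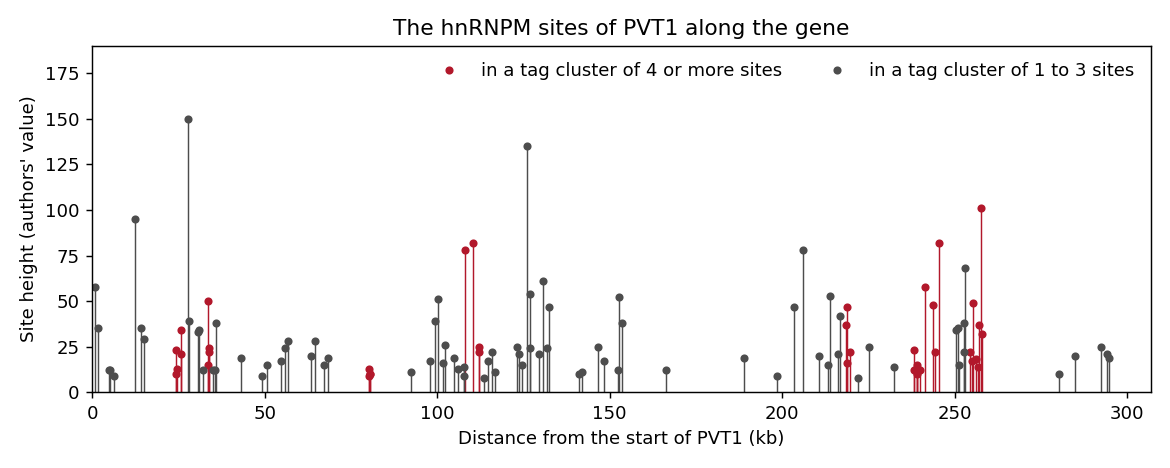
Height of each of the 120 PVT1 sites (y axis, the authors' value) against distance from the start of the gene in kb. Red marks the 39 sites in tag clusters of 4 or more sites and grey the others; the 3 sites above 100 stand near 28, 126 and 257 kb.

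The sites fell into denser and sparser segments of the gene. PVT1 was divided into 10 equal segments of 30.7 kb from its start. The sites per segment, in order, numbered 16, 15, 8, 18, 16, 2, 7, 18, 15 and 5. Segments 1 to 5 thus held 73 sites (60.8%), or 47.6 per 100 kb. Segments 6 and 7 held 9 sites, or 14.7 per 100 kb, and segments 8 and 9 held 33, or 53.8 per 100 kb. The last segment held 5, or 16.3 per 100 kb. Segments 6 and 7 thus lay between portions that held more sites per length. The 5′ portion was not dense throughout, as segment 3, with 8 sites, was close to segment 7, with 7. The segments were grouped after their counts were seen.

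Median heights did not track the site numbers. The highest medians were in segment 9, at 34, and in segment 1, at 31, and the lowest was in segment 3, at 14. Segment 4, which shared the highest number of sites with segment 8, had a median of 18. The 2 sites of segment 6 had heights of 12 and 38. Every segment had its median above the 11 of the other sites in the list. The median ratio to expected height was highest in the segments with the fewest sites, at 38.8 in segment 6, 32.8 in segment 10 and 30.1 in segment 7. It was between 17.9 and 24.0 in the others. Median expected heights were 0.6 in segment 6 and 0.53 in segment 10, so the limits on ratios and heights given above apply between segments too. Segment 7 had 1.03, near the 1.04 of all PVT1 sites. Segment 3 had the lowest, 0.48, with a median ratio of 24.0.

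**Figure D4:**
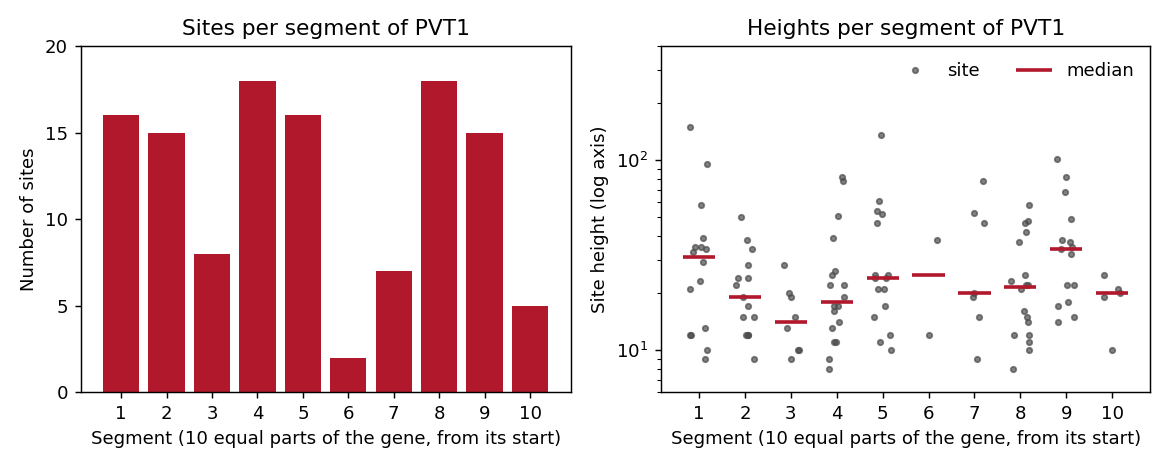
Number of sites (left, y axis) and height of each site (right, log y axis, with the median as a red line) in each of 10 equal segments of PVT1 from its start. Counts range from 2 in segment 6 to 18 in segments 4 and 8, and medians from 14 in segment 3 to 34 in segment 9.

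Gaps differed widely in length. Between adjacent sites the median gap was 1142 nt (quartiles 468.5 and 2544.5, range 26 to 22612), and 18 of 119 gaps exceeded 5 kb. The longest gap, 22.6 kb, ran from 166 to 189 kb from the start of the gene (128973028 to 128995618). It directly followed the third longest, 12.6 kb (128960471 to 128973006), with 1 site of height 12 between them. The second longest, 22.2 kb, ran from 258 to 280 kb (129064792 to 129086930). It opened right after the fullest tag cluster, within segment 9, and reached into segment 10. These gaps were not free of numbering: 25, 12 and 16 running numbers were passed over in them in the order given here, and 79, 61 and 97 tag cluster numbers.

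At the short end, 54 of the 119 gaps (45.4%) were under 1 kb, against 36.9% of same-strand gaps in the whole list. At 26 to 59 nt, where the list as a whole has many pairs, there were 11 PVT1 gaps (9.24%), against 5.98% in the list. The gaps of the list include those between distant loci, whereas the PVT1 gaps all lie within 1 gene. The shares are therefore not on equal terms, and gaps within other long stretches were not compared. In these 11 pairs the upstream site was the taller in 7, the downstream site in 3, and 1 pair was equal, and each pair lay in 1 tag cluster. The same counts were not made for the whole list, so no preferred order is read from them. The most unequal pair had heights of 50 and 15 at 36 nt, 33.6 kb from the start. Of the pairs in the reverse order, the one most unequal in ratio was a pair with heights of 12 and 23 at 45 nt, 238 kb from the start.

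Tag clusters of PVT1 held more sites on average than the rest of the list, and fewer than several other long stretches did. The 120 sites belonged to 62 tag clusters, 1.94 sites per cluster, against 1.35 in the other 40067 clusters. Among 128 long stretches of sites on 1 strand, defined with the comparison of such stretches, 8 had more sites per cluster than PVT1, up to 2.29, and the median was 1.55. In PVT1, 36 clusters (58.1%) held 1 site, against 76.7% of the others, and 9 held 3 sites (14.5%), against 4.64%. There were 8 PVT1 clusters with 4 or more sites (12.9%), against 2.73% of all clusters in the list, and they held 39 of the 120 sites. Expected heights of the clusters ran from 0.22 to 4.12 with a median of 0.87.

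The fullest PVT1 cluster held 8 sites, a number reached by 49 clusters in the list, where the highest was 12. It covered 3703 nt, from 129061089 to 129064791, in segment 9. Its sites had heights of 22, 17, 49, 18, 14, 37, 101 and 32 from upstream to downstream, so that its tallest site was the seventh of the 8. The next fullest cluster held 6 sites from 129044966 to 129046597, with heights from 10 to 23. The cluster with the highest expected height, 4.12, held 4 sites over 4058 nt from 128914937 to 128918994, with heights from 22 to 82. In contrast to the cluster of 6 sites, 3 clusters of fewer sites had sites above 90: that of the tallest site, with 2 sites, that of height 135, with 3, and the lone site of height 95.

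PVT1 was set beside the loci most like it, long stretches of sites on 1 strand. A stretch was a run of sites on 1 strand, uninterrupted by the other strand and with no gap over 50 kb. There were 128 stretches of 50 or more sites. The PVT1 stretch held exactly the 120 sites of the gene, and 2 of the other 127 held more. These were a stretch on the minus strand of chromosome 1, with 147 sites over 664 kb and a median height of 14, and a chromosome 8 stretch, also on the minus strand and from 118827397 to 119121458, with 144 sites over 294 kb and a median height of 24.5. The chromosome 8 stretch resembled PVT1 in several measures. PVT1 had 62 tag clusters and the chromosome 8 minus-strand stretch 63, both spanned 294 kb, and the share of running numbers listed was 16.7% in PVT1 and 16.8% in the minus-strand stretch. The tallest site reached 150 in PVT1 and 414 in the minus-strand stretch, and the summed height was 3510 in PVT1 and 5473 in the minus-strand stretch.

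By summed height 1 stretch of the other 127 exceeded PVT1, and by median height 4 did. PVT1 had 40.8 sites per 100 kb of its span, and 19 stretches had more. The middle values over all 128 stretches were a median height of 14, a summed height of 1209 and 29.7 sites per 100 kb. In the share of running numbers listed, 125 of the other 127 stretches were above PVT1. In the ratio of height to expected height, 81 were above its 21.6. PVT1 thus stood near the top of the long stretches in number and height of sites, and below the middle by ratio. Its median expected height was 1.04, against a middle value of 0.65 over the stretches, so the limits on ratios and heights given above apply.

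**Figure D5:**
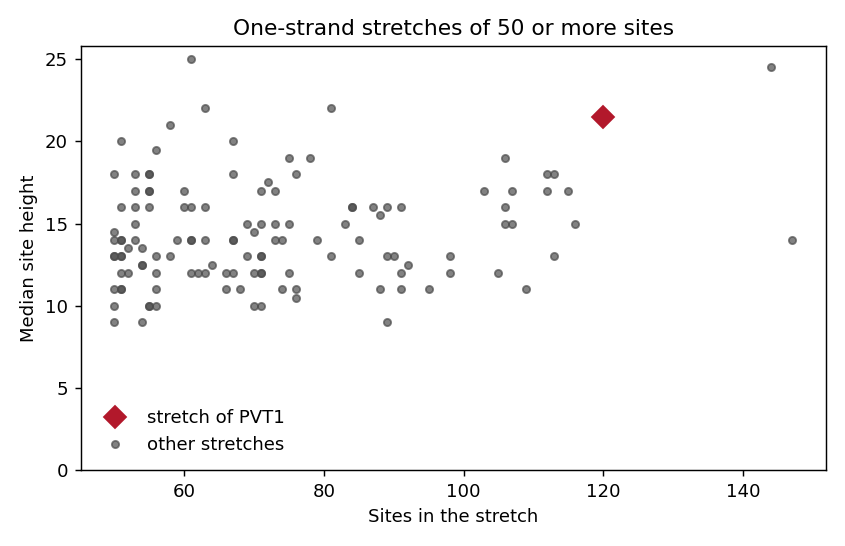
Number of sites (x axis) and median site height (y axis) of each of the 128 stretches of 50 or more sites on 1 strand. The red diamond is the PVT1 stretch, with 120 sites and a median of 21.5; 2 stretches lie to its right and 4 above it.

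Windows of the length of PVT1 restated these counts and are not separate support. The length was that of the gene itself, so a window begun at its first site had to hold all 120. Longer stretches, such as that of 664 kb on chromosome 1, could not show whole. When windows of this length were begun at each of the 54373 sites, 26 (0.0478%) held at least 120 sites. They lay in 2 places: 1 began at the first PVT1 site and 25 were in the chromosome 8 minus-strand stretch, where the highest number was 144. The median was 12 sites. When the genome was instead tiled with such windows, none of the 5450 windows with a site held more than 120, and the fullest, with 112 sites and a median height of 21, was 1 that covered most of PVT1 (128822821 to 129129541). The tiling cut the minus-strand stretch, so its 144 sites did not show in 1 window.

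PVT1 did not reach the highest values of the list. Its tallest site, at 150, was at the level of the lowest site in the tag cluster that held the tallest of all. The 2 tag clusters that reached the greatest heights both lay on chromosome 11, plus strand. The first, with 12 sites from 65192097 to 65206589, had heights from 149 to 1969, and the second, with 2 sites from 65267142 to 65268438, had heights of 722 and 1949. The summed height was 3510 over the 294 kb of PVT1 sites and 9381 over the 14.5 kb of the first chromosome 11 cluster.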

How the data were processed

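The deposited list holds 1 row per site, 21 nt wide, with GRCh37 as the build per the submitters' processing notes. Neither the alignment and site calling, with their thresholds and handling of PCR duplicates, nor the pooling of libraries was stated, so they count as not given in the sources used here. Per site, the score deposited by the authors (height) is a whole number equal to the PH value in the name of the site; the names also hold the authors' PH0, P, running number and tag cluster. P values run up to 9.99e-04.

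Membership used base 11 of each site. The members and all lists and thresholds were chosen with earlier results of these data known. Every PVT1 site was summarised, and those named were the 10 tallest, the first and last, the fullest cluster and the 3 longest gaps; other sites, clusters and pairs were named after their values were seen. No test was run, since the list has 1 value per site and 1 group. Membership, stretches and merging were tested on simulated data with planted sites. For tiled windows only the total number of sites was checked, and windows begun at each site were not tested in this way. Sequences were not used here. Shares carry exact (Clopper-Pearson) 95% intervals. Intervals of medians are 95% order-statistic intervals, which treat sites as independent. Tables were handled with pandas 2.3.3 and numpy 2.4.6 in Python 3.11.15, intervals came from scipy 1.17.1, and figures were drawn with matplotlib 3.10.9.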

Additional observations from a re-analysis of the deposited data

How the results depend on the processing

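Each alternative value (24 in all) stayed within 1.5 times the reported count or within the 95% interval of the reported value. The intervals of medians treat sites as independent, which those of 1 gene are not. PVT1 had 107 sites among sites at or above the median height of the list and 109 with sites within 50 nt merged. It had 119 with a margin of 1 kb inside the bounds and 120 with bounds widened by 1 kb. MYC had 0 in each, which was fixed in advance. No plus-strand site lay within 1 kb of MYC, and the other settings can only keep or remove sites. The MYC values are among the 24 and say nothing about robustness. The PVT1 values with widened bounds followed from the empty flanks, and the 107 repeats the count given above for that height. The median height among those 107 sites is of sites selected on height. These PVT1 values therefore say little about robustness either. The median PVT1 height ranged from 20.2, less the expected height, to 22. The median ratio to expected height ranged from 21.2, with the margin inside the bounds, to 23.9, among sites at or above the median height of the list. Of tiled windows, 1 of 5487 held more sites than PVT1 when the tiles were offset. Windows begun at each site were added after seeing the data. Values that need a MYC site (its median height, the ratio of densities) could not be given. No paired analysis was possible because there is 1 group without values per library, and for that reason no replicate was left out. Without a known depth, the number of sites missed at low heights cannot be given.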
